A study of Mus musculus with 26 samples.

Results

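The 10 leucine-rich repeat synaptic adhesion genes described here are Lrrc4, Lrrc4b and Lrrc4c (the netrin-G ligand family), Lrrtm1 to Lrrtm4 (the leucine-rich repeat transmembrane family) and Lrrn1 to Lrrn3 (the neuronal leucine-rich repeat family). They were chosen by symbol from the probe table of the array, out of 18193 genes with a probe set of their own, and all 10 were present, with 23 probe sets between them. For each gene the brightest probe set, by mean over all 26 arrays, gave the level, and the remaining probe sets were set beside it. The NCBI gene identifiers are 192198 for Lrrc4, 272381 for Lrrc4b, 241568 for Lrrc4c, 74342 for Lrrtm1, 107065 for Lrrtm2, 216028 for Lrrtm3, 243499 for Lrrtm4, 16979 for Lrrn1, 16980 for Lrrn2 and 16981 for Lrrn3.

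Retinal neurons were sorted from mice at postnatal day 6, and each of the 13 subtypes has 2 replicates, taken from different litters. The bipolar cells were ON bipolar cells (GFP-positive, C57BL/6) and MP bipolar cells (CFP-positive and VC1.1-negative, mixed C57BL/6 and CD1). The ganglion cells were all sorted as Thy1-positive and came from the BD, J, W3 and W7 lines (YFP, C57BL/6), from Isl2 mice (beta-galactosidase, C57BL/6) and from Cdh3 BAC mice (GFP, Swiss Webster crosses). The amacrine cells were starburst cells (Kusabira Orange-positive and Thy1-negative, C57BL/6), PaxCre GABAergic cells (GFP, C57BL/6), AII cells (GFP, Swiss Webster crossed to C57BL/6), J glycinergic cells (YFP, C57BL/6) and MP amacrine cells (CFP-positive and VC1.1-positive, mixed C57BL/6 and CD1). A sort holds whatever cells carried its reporter and gate, and the labels give no count of cells. Since each array measured a pool of cells, fewer cells of a type and less RNA per cell cannot be told apart.

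These genes code for transmembrane proteins whose leucine-rich repeats reach across the synaptic cleft. Lrrc4c binds netrin-G1, the product of Ntng1, Lrrc4 binds netrin-G2, and Lrrc4b binds receptor tyrosine phosphatases of the LAR family, while the Lrrtm proteins sit in the postsynaptic membrane and bind neurexins or, for Lrrtm3 and Lrrtm4, heparan sulfate proteoglycans such as glypicans. In the mouse retina, Lrrc4 protein is known from the axon tips of horizontal cells at rod synapses, and Lrrtm4 from the axon terminals of rod bipolar cells. The Lrrn proteins share the repeats, but their partners are less well defined.

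Promoters are shown for 3 genes, Lrrn1 for the difference between whole cell classes and Lrrtm1 and Lrrtm3 for opposite differences between the bipolar sorts. Each is the 250 bases before the RefSeq start in GRCm38.p6, written 5′ to 3′ on the strand of the gene, at chr6:107529476-107529725 on the plus strand for Lrrn1, chr6:77242227-77242476 on the plus strand for Lrrtm1 and chr10:64090256-64090505 on the minus strand for Lrrtm3. Capitals mark matches to the E-box CANNTG, which basic helix-loop-helix factors bind, searched on both strands together with the homeodomain core TAATTA and with TAATCC, the motif of Otx and Crx factors.
Lrrn1: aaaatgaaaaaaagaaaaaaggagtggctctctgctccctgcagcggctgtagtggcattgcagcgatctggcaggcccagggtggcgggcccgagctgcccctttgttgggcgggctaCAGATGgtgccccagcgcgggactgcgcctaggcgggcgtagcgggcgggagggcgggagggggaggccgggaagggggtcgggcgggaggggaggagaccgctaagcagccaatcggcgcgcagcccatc
Lrrtm1: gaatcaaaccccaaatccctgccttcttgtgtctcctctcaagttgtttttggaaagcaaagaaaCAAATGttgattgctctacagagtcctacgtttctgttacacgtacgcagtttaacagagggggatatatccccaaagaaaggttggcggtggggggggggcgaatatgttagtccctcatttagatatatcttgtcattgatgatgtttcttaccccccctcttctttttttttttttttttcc
Lrrtm3: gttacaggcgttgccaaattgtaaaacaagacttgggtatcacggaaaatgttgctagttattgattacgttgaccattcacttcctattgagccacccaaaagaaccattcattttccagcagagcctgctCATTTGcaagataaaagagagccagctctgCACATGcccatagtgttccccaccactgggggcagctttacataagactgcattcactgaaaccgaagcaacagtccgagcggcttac
The Lrrn1 promoter held 1 E-box and 68% G and C bases, the Lrrtm1 promoter 1 E-box and 42%, and the Lrrtm3 promoter 2 E-boxes and 46%, against a median of 52.4% G and C over 32851 promoters of the same length. An E-box occurred in 66.2% of those promoters, TAATTA in 4.84% and TAATCC in 6.25%, and neither of the last pair was found in the 3 windows. No motif overlapped another. RefSeq promoters were given for 8 of the 10 genes.

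Levels are log2(intensity + 16) after quantile normalization, a scale with its floor at 4.09 and an overall median of 6.14. On the linear scale as deposited, the 12 arrays of ganglion cells had medians of 61.5 to 74.8 and the other 14 arrays medians of 37.4 to 47.1, so that the scale of a set of arrays and the ganglion cell class cannot be told apart. Averaged over each list, marker genes followed the labels. The 7 ganglion cell markers averaged 11.67 to 12.06 on ganglion cell arrays and 5.34 to 8.07 elsewhere. The 6 bipolar markers averaged 9.82 to 10.77 on bipolar arrays and 6.08 to 8.29 elsewhere, and 6 amacrine markers 8.96 to 11.51 on amacrine arrays and 5.95 to 8.25 elsewhere. Not every marker did so. The amacrine marker Pax6 was at 9.72 to 11.08 in ganglion cell subtypes. The bipolar marker Isl1 was at 12.81 in starburst and 9.55 in MP bipolar cells. Trpm1 was at 4.89 in MP bipolar cells and 5.81 to 6.20 in ganglion cell subtypes. Thy1, which gated the ganglion cell sorts, was at 11.67 in MP bipolar cells. The MP amacrine arrays were the least clear, with amacrine markers averaging 8.97, against 10.54 to 11.46 in the other amacrine subtypes. Their ganglion cell markers were at 8.07 and 6.82 and their rod markers at 9.27 and 8.74. Neither trait was theirs alone. Ganglion cell markers averaged 7.45 in J amacrine cells, and rod markers 8.87 in MP bipolar, 8.27 in ON bipolar and 8.25 in AII cells.

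Of the 10 genes, 8 passed the filter on dim genes, which asked for at least 2 of 26 arrays above the overall median, and were tested. Lrrc4b and Lrrn2 did not pass. Lrrc4b lay at the floor of 4.09 in 10 of 13 subtypes and reached 4.88 on 1 ON bipolar array. Lrrn2 lay between 4.29 and 5.51 on all arrays. No difference is given for either gene. A difference was called at a Benjamini-Hochberg adjusted p under 0.05 in limma, over all 13951 genes tested, together with a size of at least 1 log2 unit. Errors of differences are standard errors. They and the p-values rest on the spread of replicates within subtypes. For a difference between classes they do not measure the spread between the subtypes of a class.

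The 8 tested genes differed over the 13 subtypes, each with adjusted p of at most 0.000376 and a range of subtype means from 2.21 (Lrrc4) to 5.29 log2 units (Lrrtm1), where 71.3% of all genes were called. The median range was 3.49 for these genes and 1.58 for all genes. Their patterns were not shared: over the 13 subtype means, Pearson correlations among the 28 pairs ran from -0.43 (Lrrc4 with Lrrtm3) to 0.58 (Lrrc4c with Lrrtm2), given as a description of points that come from the same arrays. The plot of levels by subtype shows Lrrn1 dividing the classes, Lrrtm1, Lrrtm3 and Lrrtm4 dividing subtypes within a class, and Lrrn3 high on every array.

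**Figure D1:**
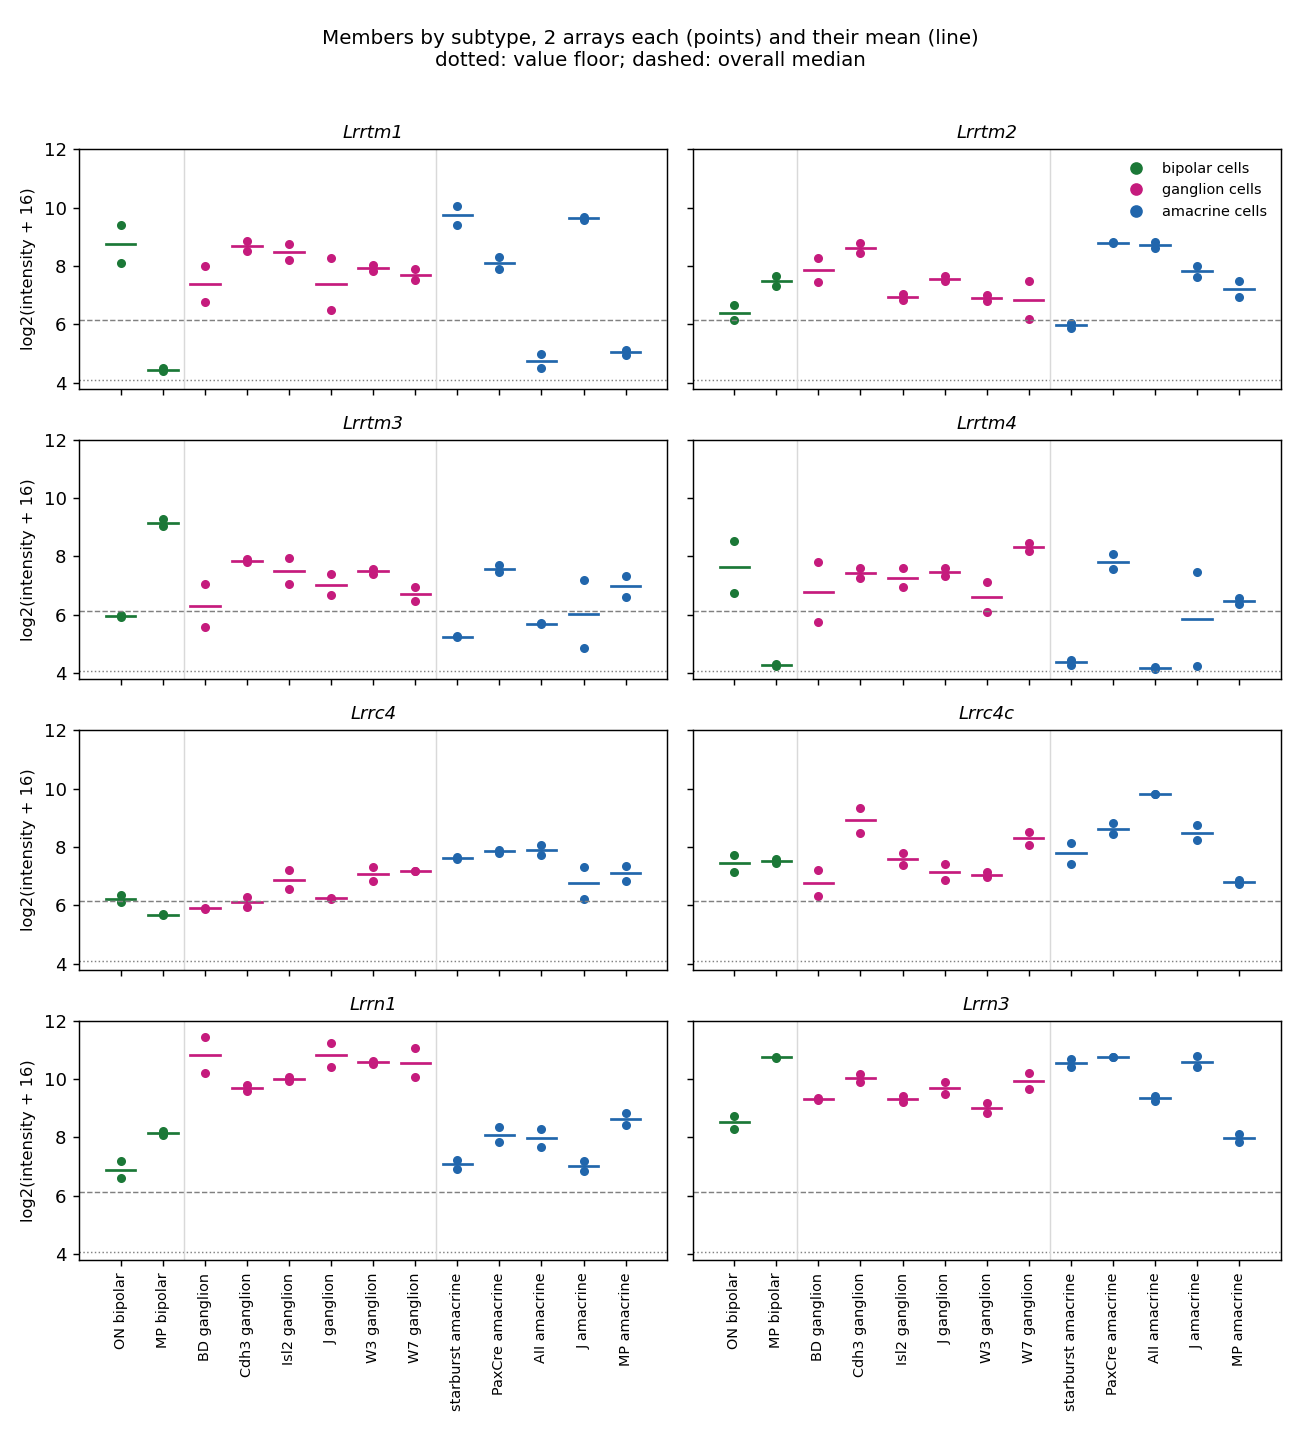
Level (log2 of intensity + 16) of the 8 tested genes on each of 26 arrays, with the 13 subtypes on the horizontal axis grouped as bipolar, ganglion and amacrine cells. Points are arrays, short lines are means of 2 arrays, the dotted line is the floor of 4.09 and the dashed line the overall median of 6.14. Lrrn1 lies at 9.58 or above on ganglion cell arrays and at 8.84 or below on all others, while Lrrtm1 and Lrrtm4 drop close to the floor in MP bipolar and AII amacrine cells.

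Lrrn1, a repeat protein known in the chick for its part in forming boundaries between brain regions, was the member that set the ganglion cells apart. On ganglion cell arrays it ran from 9.58 to 11.42 with a median of 10.31, against 6.84 to 8.84 with a median of 7.75 on amacrine arrays. Every ganglion cell array was above every amacrine array, which held for 17.3% of all genes in either direction. The difference was 2.65 ± 0.16 log2 units, or 6.26-fold (adjusted p = 6.91e-11). The bipolar arrays lay with the amacrine arrays, at 6.60 and 7.19 in ON bipolar cells and 8.22 and 8.08 in MP bipolar cells, with a difference of -2.89 ± 0.22 from the ganglion cell arrays (7.40-fold lower, adjusted p = 1.98e-09), with no overlap, as for 34.9% of all genes. Bipolar and amacrine cells differed by -0.24 ± 0.23, which did not pass.

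Within the ganglion cells Lrrn1 did not pass the test of a difference between subtypes (adjusted p = 0.239), with means from 9.70 in Cdh3 to 10.82 in J ganglion cells. Markers of microglia moved with this comparison: all 7 were called higher in ganglion cells than in amacrine cells, the mean over the list running from 6.29 to 10.85 on ganglion cell arrays, against 5.37 to 7.73 on amacrine and 5.57 to 6.88 on bipolar arrays, where C1qc and Aif1 stayed below the overall median throughout. On the 2 ganglion cell arrays with the least of these markers, Cdh3 replicate 2 (6.29) and W3 replicate 2 (6.76), Lrrn1 was at 9.81 and 10.63. On the 2 with the most, J replicate 2 (10.85) and Isl2 replicate 2 (10.18), Lrrn1 was at 11.22 and 9.92. Other lists moved too: 2 of 4 vascular markers were called higher in ganglion cells, Rgs5 with a median of 10.73 on ganglion cell and 5.53 on amacrine arrays and Pdgfrb with 8.24 and 5.06, while 4 of 5 rod markers were called lower and 3 of 4 cone markers were called, 1 higher and 2 lower. The part of these cells in the Lrrn1 difference was not tested. Its other probe sets were dim, averaging 5.61 and 5.42, and a median taken across all 3 gave differences of 0.32 in ganglion against amacrine and -0.09 in bipolar against ganglion cells, neither called.

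In ganglion against amacrine cells 2 of the 8 genes were called, both higher, where 24.8% of all genes were called and 15.8% were higher. The second was Lrrtm4, whose product organises excitatory synapses through glypicans and neurexins. It ran from 5.77 to 8.47 with a median of 7.46 on ganglion cell arrays, against 4.14 to 8.09 with a median of 5.42 on amacrine arrays. The difference was 1.58 ± 0.33 (2.98-fold, adjusted p = 0.000327), but the arrays overlapped, with PaxCre amacrine cells at 7.56 and 8.09. The second probe set of Lrrtm4 gave -0.39 (adjusted p = 0.0602), and with subtype means as the units of replication the difference had an adjusted p of 0.0883.

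Lrrc4, the netrin-G2 partner, was highest in amacrine cells. Its bipolar arrays stood at 6.11 and 6.35 in ON and 5.67 and 5.70 in MP bipolar cells, against 6.21 to 8.07 with a median of 7.61 on amacrine arrays. The difference was -1.49 ± 0.17 (2.81-fold lower in bipolar cells, adjusted p = 2.45e-06). In ganglion cells it ran from 5.88 to 7.30 with a median of 6.41, and the difference from amacrine cells, -0.88 ± 0.13 (adjusted p = 5.71e-06), fell short of 1 log2 unit. With subtype means as units the bipolar difference had an adjusted p of 0.0585.

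Bipolar against amacrine cells gave 2 calls among the 8 genes, where 10.4% of all genes were called. The gene beside Lrrc4 was Lrrtm3, a binder of glypicans and neurexins, higher in bipolar cells by 1.26 ± 0.32 (2.39-fold, adjusted p = 0.00569). That mean joined unlike sorts, 5.92 and 6.01 in ON and 9.28 and 9.04 in MP bipolar cells, against 4.85 to 7.70 with a median of 6.17 on amacrine arrays. Among subtypes labelled C57BL/6, which hold ON but not MP bipolar cells, the difference was -0.32 (adjusted p = 0.682).

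Bipolar against ganglion cells gave 3 calls, all lower in bipolar cells, where 29.6% of all genes were called and 18.5% were lower. Besides Lrrn1 they were Lrrtm1, a neurexin-binding organiser of excitatory synapses (-1.33 ± 0.28, adjusted p = 0.000518), and Lrrtm4 (-1.34 ± 0.44, adjusted p = 0.0127). ON and MP bipolar cells again differed: ON bipolar arrays stood at 9.40 and 8.09 for Lrrtm1, and MP bipolar arrays at 4.41 and 4.50, against a ganglion cell range of 6.48 to 8.84. Among C57BL/6 subtypes the differences were 0.97 for Lrrtm1 and 0.36 for Lrrtm4, and the second probe sets gave 0.34 for Lrrtm1 and 1.71 for Lrrtm4 (adjusted p = 6.64e-06). The median difference of the 8 genes was -0.56 in bipolar against ganglion, -0.50 in bipolar against amacrine and 0.11 in ganglion against amacrine cells. Without ON bipolar replicate 2 the difference of Lrrtm4 was -0.90 (adjusted p = 0.128).

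**Figure D2:**
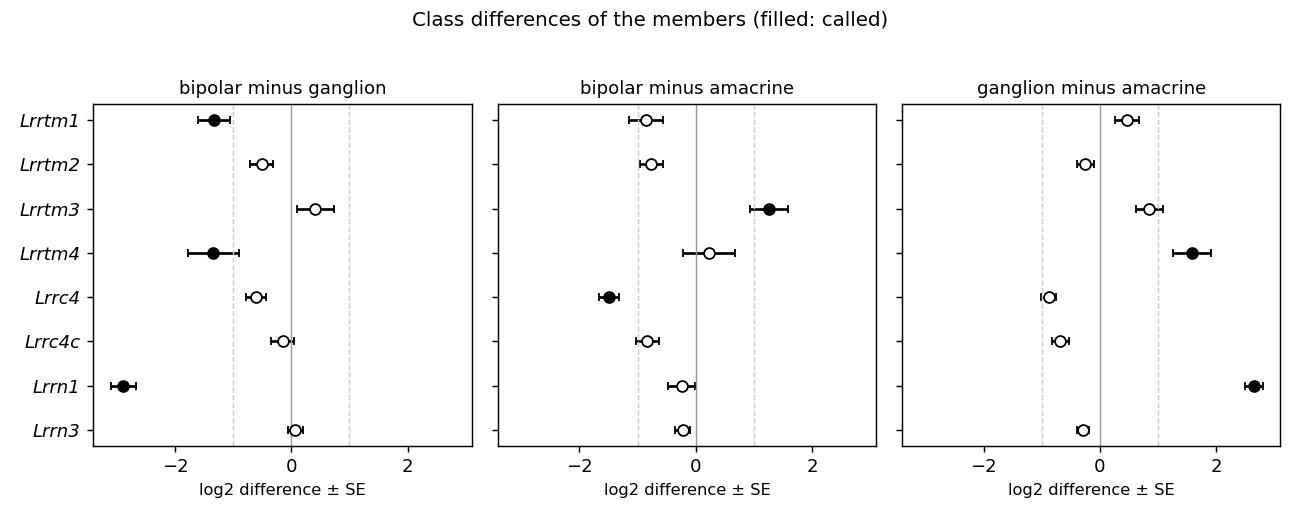
Differences between cell classes in log2 units (horizontal axis) for the 8 tested genes, in bipolar minus ganglion, bipolar minus amacrine and ganglion minus amacrine cells. Points are limma estimates with standard errors, filled where called, and dashed lines mark 1 log2 unit. Lrrn1 is at -2.89 in the first panel and 2.65 in the third, the largest differences shown.

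The bipolar sorts differed from each other in the Lrrtm family and in Lrrn3. In ON against MP bipolar cells 4 of the 8 genes were called, 2 higher and 2 lower, where 5.03% of all genes were called, 2.59% higher and 2.44% lower. Arrays of the sorts did not overlap for 7 of the 8 genes, against 47.6% of all genes, a high share because only 2 arrays stand on each side.

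Lrrtm1 had 9.40 and 8.09 in ON bipolar cells, against 4.41 and 4.50 in MP bipolar cells. The MP arrays lay close to the floor. The difference of 4.30 ± 0.49 (19.6-fold on this scale, adjusted p = 9.77e-06) was the largest of any member by its brightest probe set. Its size was not shared by the dimmer probe sets of Lrrtm1, which gave 1.36 (adjusted p = 0.0142, called) for the second and 0.24 for the third. Lrrtm4 had 8.54 and 6.76 in ON bipolar cells, against 4.33 and 4.26 in MP bipolar cells (3.35 ± 0.76, adjusted p = 0.0088). The ON replicates were far apart for this gene, and the call was lost without ON replicate 1 (2.46, adjusted p = 0.17), MP replicate 1 (3.39, adjusted p = 0.0566) or MP replicate 2 (3.32, adjusted p = 0.0687). The second probe set of Lrrtm4 had 10.37 and 9.48 in ON bipolar cells, against 6.00 and 4.80 in MP bipolar cells, a difference of 4.53 (adjusted p = 7.22e-07). Both probe sets of Lrrtm4 thus ordered the sorts alike.

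Lrrtm3 ran the other way, with 5.92 and 6.01 in ON bipolar cells, against 9.28 and 9.04 in MP bipolar cells (-3.19 ± 0.55, adjusted p = 0.00074). MP bipolar cells were the highest of the 13 subtypes for Lrrtm3, 1.30 log2 units above the next, Cdh3 ganglion cells. All 4 probe sets of the gene gave the same sign, with -3.59, -2.52 and -1.94 for the dimmer ones. Lrrn3 had 8.73 and 8.29 in ON bipolar cells, against 10.71 and 10.76 in MP bipolar cells (-2.23 ± 0.23, adjusted p = 2.35e-06). This gene has a single probe set. Lrrn1 (-1.26, adjusted p = 0.0635) and Lrrtm2 (-1.08, adjusted p = 0.0724) did not pass, although the second probe set of Lrrtm2 did (-2.06, adjusted p = 0.00123). None of 5 rod markers was called in limma between these sorts, and none had an unadjusted p under 0.05; their mean was 8.76 and 7.79 in ON and 8.65 and 9.08 in MP bipolar cells. Other marker lists did differ: 1 of 4 cone markers was called, Opn1sw (6.67 in ON and 8.93 in MP bipolar cells), 1 of 7 ganglion cell markers, Thy1 (5.03 in ON and 11.67 in MP bipolar cells), and 2 of 6 bipolar markers, Isl1 (12.82 in ON and 9.55 in MP bipolar cells) and Trpm1 (6.76 in ON and 4.89 in MP bipolar cells). The part of these cells in the differences was not tested. The sorts also differ in strain and reporter, which cannot be told apart from the cell type.

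**Figure D3:**
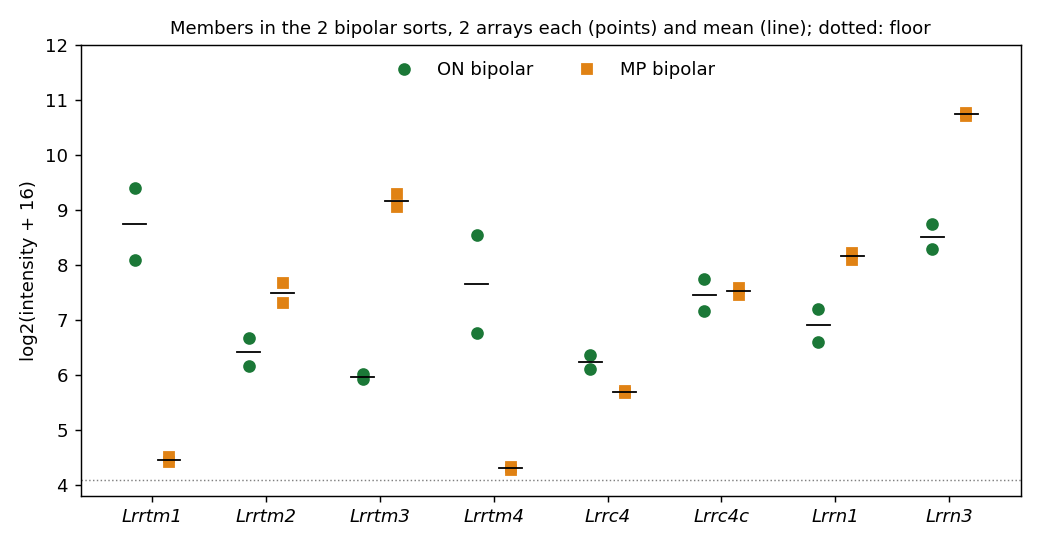
Level (log2 of intensity + 16) of the 8 tested genes in ON bipolar cells (circles, left) and MP bipolar cells (squares, right), 2 arrays each, with means as short lines and the floor of 4.09 as a dotted line. Lrrtm1 and Lrrtm4 are near the floor in MP bipolar cells, at 4.26 to 4.50, and Lrrtm3 and Lrrn3 are higher there than in ON bipolar cells.

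Among the 5 amacrine subtypes all 8 genes differed, where 40.2% of all genes were called, with adjusted p from 4.39e-08 for Lrrn3 to 0.0108 for Lrrc4. The difference of Lrrc4 was 0.80 without J amacrine replicate 1 and then short of 1 log2 unit. The median range of subtype means was 2.79 log2 units for the 8 genes and 0.92 for all genes. When each subtype was set against the others of its class, 17 of the calls lay among amacrine cells and 2 among ganglion cells, 19 of 88 in all, where 5.19% of all such tests were called.

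Lrrtm1 split the amacrine cells into high and low subtypes. It had 10.07 and 9.42 in starburst, 9.59 and 9.67 in J and 7.88 and 8.30 in PaxCre cells, but 5.0 and 4.52 in AII and 4.96 and 5.14 in MP amacrine cells. The low pair lay more than 2 log2 units below every other amacrine subtype. AII and MP cells came from mice of mixed strain and the other amacrine subtypes from C57BL/6 mice. Strain and subtype therefore cannot be told apart here, nor in the other differences of AII and MP amacrine cells given below. Against the other amacrine cells the differences were 2.86 for starburst and 2.72 for J cells, and -3.37 for AII and -3.01 for MP cells, each with an adjusted p of at most 0.000126. Among C57BL/6 subtypes, which leave out the low AII and MP cells, the differences were 0.88 for starburst (adjusted p = 0.278) and 0.71 for J cells (adjusted p = 0.398) and were not called. In the order of all 13 subtypes, MP amacrine cells followed BD ganglion cells after a gap of 2.33 with a standard error of 0.49. The second probe set gave the same 4 signs and calls, with 1.42, 1.70, -1.88 and -1.36.

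Lrrtm2, also a neurexin-binding organiser of excitatory synapses, was lowest in starburst cells. It had 5.89 and 6.06 there, 8.77 and 8.81 in PaxCre, 8.61 and 8.83 in AII, 8.01 and 7.64 in J and 6.94 and 7.48 in MP amacrine cells. The difference from the other amacrine cells was -2.16 for starburst, 1.36 for PaxCre and 1.27 for AII cells. Its second probe set followed the brightest with a Pearson r of 0.90 over the 13 subtype means and gave -3.03, 1.69 and 1.06, each called. The third probe set did not follow it (r = -0.35), and with the median over probe sets the AII difference was 0.70 and not called (adjusted p = 0.0639).

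Lrrtm3 and Lrrtm4 were both high in PaxCre cells and low in starburst cells. Lrrtm4 had 7.56 and 8.09 in PaxCre and 6.36 and 6.57 in MP amacrine cells, 4.28 and 4.47 in starburst and 4.2 and 4.14 in AII cells, and the starburst and AII values lay close to the floor. The difference from the other amacrine cells was 2.61 for PaxCre and -1.96 for AII cells. Without PaxCre replicate 2 the first was 2.34 (adjusted p = 0.136), and without AII replicate 1 or 2 the second was -1.99 (adjusted p = 0.0894) or -1.93 (adjusted p = 0.127). The call in starburst cells (-1.70) was lost in 24 of 39 alternatives, with adjusted p up to 0.192 without starburst replicate 1.

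Lrrtm3 had 7.46 and 7.70 in PaxCre and 7.34 and 6.62 in MP amacrine cells, 5.68 and 5.71 in AII and 5.24 and 5.26 in starburst cells. The difference from the other amacrine cells was 1.59 for PaxCre and -1.32 for starburst cells. The PaxCre call was lost without PaxCre replicate 1 (1.71, adjusted p = 0.109) or 2 (1.47, adjusted p = 0.213), and the starburst call without starburst replicate 1 (-1.31, adjusted p = 0.138) or 2 (-1.33, adjusted p = 0.17), MP amacrine replicate 1 (-1.23, adjusted p = 0.052) or PaxCre replicate 2 (-1.29, adjusted p = 0.0502).

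In J amacrine cells the replicates disagreed for several of these genes. Lrrtm4 stood at 7.46 and 4.25, Lrrtm3 at 7.20 and 4.85 and Lrrc4 at 6.21 and 7.32 in replicates 1 and 2. Their second probe sets were closer: Lrrtm4 had 7.87 and 8.21 there and was called higher in J cells than in the other amacrine cells (2.11, adjusted p = 0.000444). The mean of the microglia markers was 6.86 and 5.49 on these arrays and that of the rod markers 7.69 and 6.79, and their part in the difference was not tested.

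Lrrc4c, the netrin-G1 partner, was highest in AII cells and lowest in MP amacrine cells. It had 9.82 and 9.82 in AII, 8.82 and 8.43 in PaxCre, 8.24 and 8.74 in J, 7.40 and 8.15 in starburst and 6.74 and 6.86 in MP amacrine cells. The difference from the other amacrine cells was 1.89 for AII and -1.88 for MP cells. The probe sets disagreed: the second gave 0.23 (adjusted p = 0.638) and -0.23 (adjusted p = 0.659) and was highest in J cells, at 8.78 and 8.22, and it followed the brightest with an r of 0.38 only.

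Lrrn3 was low in MP amacrine cells, at 8.12 and 7.85, and higher in the other 4 subtypes, at 10.41 and 10.68 in starburst, 10.75 and 10.76 in PaxCre, 10.77 and 10.40 in J and 9.43 and 9.25 in AII cells. The difference from the other amacrine cells was -2.33 for MP and 1.14 for PaxCre cells. MP amacrine cells were also the lowest of all 13 subtypes. Lrrn1 was 1.10 higher in MP amacrine cells, at 8.84 and 8.44, than in the others, and this call was lost without MP amacrine replicate 1 (0.90, adjusted p = 0.161). Beside both results stand the mixed marker levels of the MP amacrine arrays given above, whose part was not tested.

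Calls of one amacrine subtype against the others numbered 4 for PaxCre (all higher, where 6.54% of all genes were called and 4.97% were higher), 4 each for starburst, AII and MP (10.9%, 16.2% and 10.4%) and 1 for J cells (6.06%). In GABAergic cells (PaxCre and starburst) against glycinergic cells (AII and J) 1 gene was called, Lrrtm1, higher by 1.72 ± 0.35 (3.30-fold, adjusted p = 0.00135), where 9% of all genes were called. The glycinergic mean joined the high J and the low AII cells, at 9.59 and 9.67 and at 5.0 and 4.52. The call was lost with the second probe set of Lrrtm1 (0.69, adjusted p = 0.0358) and with the median over its probe sets (0.72, adjusted p = 0.0155), both short of 1 log2 unit, while the second probe set of Lrrtm2 was called (-1.45, adjusted p = 0.000553). Without J amacrine replicate 1 the comparison gave 4 calls, the added ones being Lrrc4c (-1.08, adjusted p = 0.00669), Lrrtm3 (1.14, adjusted p = 0.011) and Lrrtm4 (1.89, adjusted p = 0.00388), and without starburst replicate 2 or PaxCre replicate 1 it gave 2.

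Among the 6 ganglion cell subtypes 4 genes differed, Lrrc4, Lrrc4c, Lrrtm2 and Lrrn3, where 5.94% of all genes were called. Lrrc4c had 8.49 and 9.32 in Cdh3, 8.50 and 8.08 in W7, 7.79 and 7.38 in Isl2, 6.86 and 7.43 in J, 6.97 and 7.14 in W3 and 7.20 and 6.31 in BD ganglion cells. Lrrtm2 had 8.46 and 8.79 in Cdh3, 7.45 and 8.29 in BD, 7.49 and 7.65 in J, 7.03 and 6.84 in Isl2, 6.99 and 6.79 in W3 and 6.20 and 7.5 in W7 ganglion cells. Cdh3 cells were highest for both, by 1.54 for Lrrc4c (2.91-fold, adjusted p = 0.00155) and 1.40 for Lrrtm2 (2.64-fold, adjusted p = 0.00375) over the other ganglion cells, where 2.09% of all genes were called and 1.26% were higher. Both calls were lost without Cdh3 replicate 2 (1.13 with adjusted p = 0.143, and 1.24 with adjusted p = 0.132), while the second probe set of Lrrtm2 gave 1.68 (adjusted p = 0.00195) and that of Lrrc4c 0.13 (adjusted p = 0.946). Markers of horizontal cells moved with these calls: all 3 tested, Calb1 (2.35), Onecut2 (2.30) and Onecut1 (1.15), were called higher in Cdh3 cells, with no overlap of arrays. The mean over the 4 markers on the array was 7.79 and 8.04 on Cdh3 arrays, against 5.60 to 6.93 on the other ganglion cell arrays, and Lhx1 was below the overall median on every ganglion cell array. Their part in the calls was not tested. Cdh3 cells were also the only ganglion cells from Swiss Webster crosses, so that strain and subtype cannot be told apart in these calls. Among C57BL/6 subtypes, which leave out Cdh3 cells, the range over ganglion cell subtypes was 1.54 for Lrrc4c (F test, adjusted p = 0.102). For Lrrtm2 it was 1.02 (F test, adjusted p = 0.294), and neither was called.

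Lrrc4 had 7.30 and 6.84 in W3, 7.16 and 7.19 in W7 and 6.55 and 7.21 in Isl2 ganglion cells, but 6.25 and 6.23 in J, 6.28 and 5.94 in Cdh3 and 5.88 and 5.91 in BD cells (adjusted p = 0.0218). Without W7 replicate 1 or 2 its adjusted p was 0.0555 or 0.0621. Lrrn3 spanned 1.03 log2 units, with means from 9.0 in W3 to 10.03 in Cdh3 cells (adjusted p = 0.032), and passed narrowly: 7 arrays left out in turn ended its call, 5 of them ganglion cell and 2 PaxCre arrays, with adjusted p from 0.0506 to 0.124. No member was called in limma for BD, Isl2, J, W3 or W7 cells against the other ganglion cells, where 0.495%, 0.222%, 2.04%, 0.803% and 1.37% of all genes were called. At an unadjusted p under 0.05 these comparisons held 3, 1, 1, 4 and 4 members. The shares of all genes just given are for the stricter rule of a call. The share at the unadjusted limit was not counted, so these numbers cannot be read as particular to the members. Lrrtm4 was highest in W7 cells, at 8.18 and 8.47, and its second probe set, at 7.5 and 7.68, was called there (1.96, adjusted p = 0.00276).

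Within the J line, whose reporter marks both a ganglion and an amacrine subtype, 3 of the 8 genes were called in ganglion against amacrine cells, where 30.8% of all genes were called. Lrrn1 had 10.42 and 11.22 in J ganglion cells, against 6.84 and 7.18 in J amacrine cells (3.81 ± 0.38, 14.1-fold, adjusted p = 3.37e-07). Lrrtm1 had 8.29 and 6.48 in J ganglion cells, against 9.59 and 9.67 in J amacrine cells (-2.24 ± 0.49, adjusted p = 0.00114). Lrrc4c had 6.86 and 7.43 in J ganglion cells, against 8.24 and 8.74 in J amacrine cells (-1.35 ± 0.34, adjusted p = 0.00346). The second probe set of Lrrc4c was called the same way (-2.75, adjusted p = 2.28e-05). The third ran the other way, at 5.44 to 7.33 on all ganglion cell arrays and 4.11 to 5.06 on all amacrine arrays. The direction for Lrrc4c thus depended on the probe set. Its call was also lost where columns were kept as deposited (-0.86, short of 1 log2 unit). For Lrrn1, the median over its probe sets gave a difference of 0.33 (adjusted p = 0.432). All 7 microglia markers were called in this comparison as well, their mean being 10.11 and 10.85 on J ganglion cell arrays, against 6.86 and 5.49 on J amacrine arrays, and their part in the Lrrn1 difference was not tested. Without J amacrine replicate 1 the count was 6, adding Lrrc4 (-1.08, adjusted p = 0.00541), Lrrtm3 (2.18, adjusted p = 0.0014) and Lrrtm4 (3.21, adjusted p = 0.00103). The second probe set of Lrrtm4 was called the other way in this comparison over all arrays (-2.32, adjusted p = 0.000196), so that the direction for Lrrtm4 is not settled.

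Within the MP line, bipolar against amacrine cells gave 3 calls, where 8.37% of all genes were called. Lrrn3 had 10.71 and 10.76 in MP bipolar cells, against 8.12 and 7.85 in MP amacrine cells (2.76 ± 0.23, 6.75-fold, adjusted p = 9.44e-08). Lrrtm3 had 9.28 and 9.04 in MP bipolar cells, against 7.34 and 6.62 in MP amacrine cells (2.18 ± 0.55, adjusted p = 0.0123). Lrrc4 had 5.67 and 5.70 in MP bipolar cells, against 7.35 and 6.84 in MP amacrine cells (-1.41 ± 0.29, adjusted p = 0.00273). The call of Lrrtm3 was lost without MP amacrine replicate 2 (1.82, adjusted p = 0.146), MP bipolar replicate 1 (2.06, adjusted p = 0.0877) or MP bipolar replicate 2 (2.30, adjusted p = 0.0551). Lrrtm1 was near the floor in both MP sorts and did not pass (-0.60, adjusted p = 0.599).

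Ranked over the 13 subtypes, most neighbours did not differ by more than 2 times the standard error of their difference: 9 of 96 gaps did. They were the top place of AII cells for Lrrc4c and of MP bipolar cells for Lrrtm3, the gap below Cdh3 ganglion cells for Lrrtm2 and for Lrrn1, that between AII and starburst cells for Lrrn1, that above MP amacrine cells for Lrrtm1, and 3 for Lrrn3. For Lrrn1 the gap between the lowest ganglion cells (Cdh3, 9.70) and the highest other subtype (MP amacrine, 8.64) was 1.06. For Lrrc4 and Lrrtm4 no gap between neighbours exceeded that limit.

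Several members have more than 1 probe set, and how far these agreed differed by gene. Over the 13 subtype means the 3 further probe sets of Lrrtm3 followed the brightest with r of 0.75, 0.73 and 0.68. For ganglion against amacrine cells, however, they gave 2.42, 1.36 and -0.17, where the brightest gave 0.85. The third probe set of Lrrc4c, with an r of 0.08, lay between 5.44 and 7.33 on ganglion cell arrays, highest at 7.33 and 7.21 in Cdh3 cells, against 4.09 to 5.06 on bipolar and amacrine arrays. For Lrrtm4 the sign of the bipolar against ganglion difference depended on the probe set, at -1.34 for the brightest and 1.71 for the second. The transcripts each probe set detects were not given in the sources used here.

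**Figure D4:**
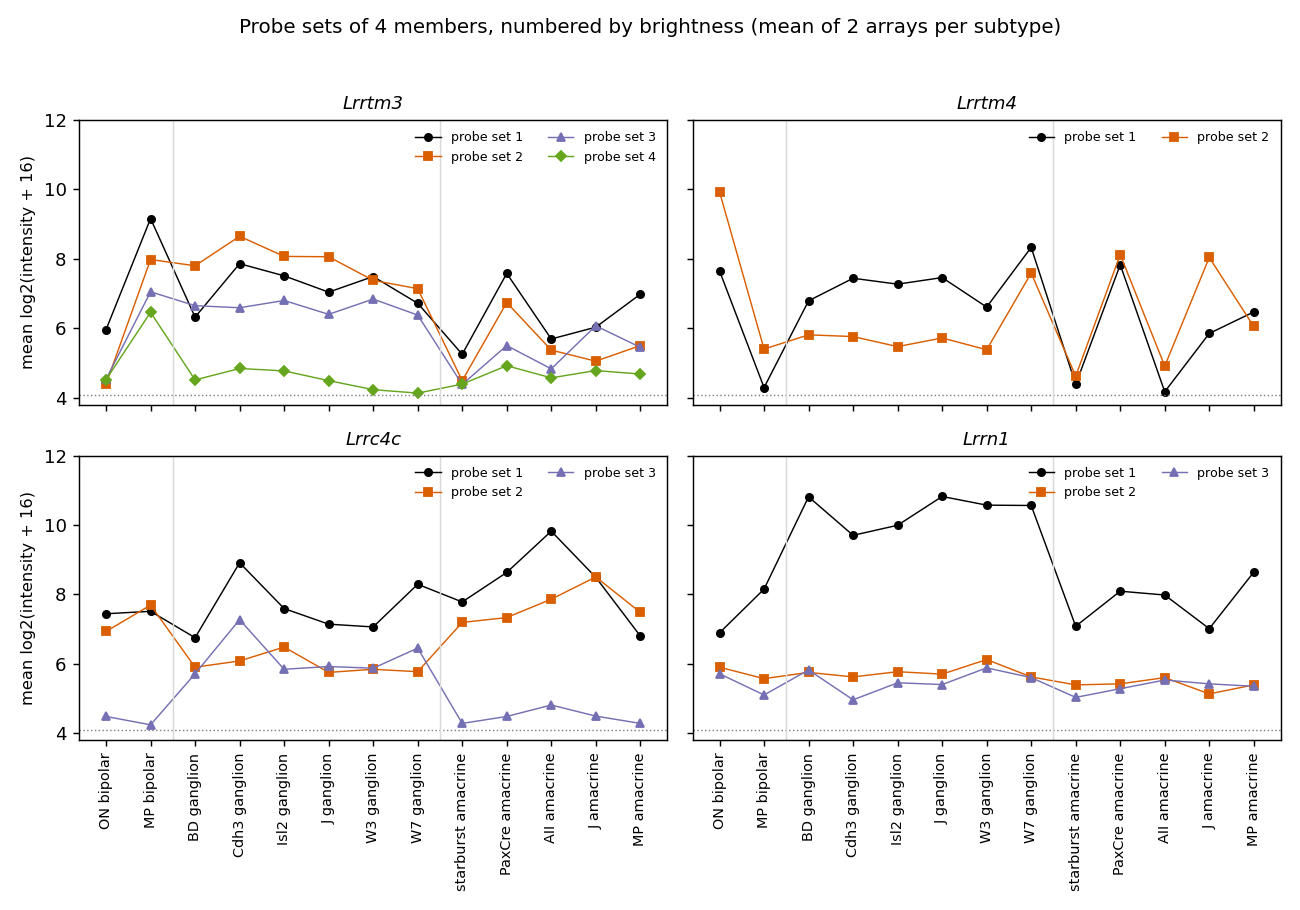
Mean level (log2 of intensity + 16, 2 arrays) of each probe set of Lrrtm3, Lrrtm4, Lrrc4c and Lrrn1 over the 13 subtypes, numbered by brightness, with the floor of 4.09 dotted. All 4 probe sets of Lrrtm3 are higher in MP than in ON bipolar cells, both of Lrrtm4 are higher in ON than in MP bipolar cells, the third of Lrrc4c is higher in each ganglion cell subtype than in any other subtype, and for Lrrn1 the brightest alone divides the classes.

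Some partners of these proteins differed between classes. Of 14 genes for netrin-G proteins, LAR-type phosphatases, neurexins and glypicans, 12 were tested. In bipolar against amacrine cells 2 rose and 1 fell: Ntng1 (2.86 ± 0.18), Gpc6 (1.23 ± 0.27) and the phosphatase gene Ptprf (-1.58 ± 0.11). Ntng1 varied within both classes, at 11.46 in ON and 8.36 in MP bipolar cells, and from 4.87 in starburst to 8.60 in MP amacrine cells. In bipolar against ganglion cells 2 rose, Gpc4 (1.57) and Nrxn3 (1.32), and 2 fell, Gpc5 (-2.29) and Ptprf (-1.36). In ganglion against amacrine cells 4 rose, Ntng1 (3.14), Gpc5 (2.09), Gpc6 (1.28) and Gpc1 (1.12), and 1 fell, Gpc4 (-2.42). Gpc5 lay below the overall median on every amacrine and bipolar array and passed the filter on dim genes only through ganglion cell arrays. The median difference of the 12 genes was 0.17, -0.15 and -0.08 in these comparisons, against 0.01, 0.02 and 0 for all genes. The counts of 3, 4 and 5 of 12 stand beside 10.4%, 29.6% and 24.8% of all genes called, so that the count in bipolar against ganglion cells was near the share of all genes.

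Ntng1, the netrin-G1 gene, was 3.09 ± 0.31 higher in ON than in MP bipolar cells (adjusted p = 2.13e-06), with its arrays at 11.45 and 11.47 in ON cells, against 8.36 and 8.37 in MP cells. It averaged 11.74 ± 0.15 in W7 ganglion cells and only 4.87 ± 0.03 in starburst and 5.55 ± 1.07 in AII amacrine cells (SD, n = 2 each), and AII cells were the subtype with the highest Lrrc4c. Ntng2, the partner of Lrrc4, named here after its values were seen, stayed between 4.18 and 5.06 on all arrays and was not tested. Gpc4, a partner of Lrrtm4, ran from 5.83 to 7.16 on ganglion cell arrays, against 7.67 to 9.64 on amacrine arrays.

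Of 11 postsynaptic scaffold and glutamate receptor genes, 10 were tested. In bipolar against amacrine cells 3 fell, and the other 7 did not pass: Gria3 (-4.89 ± 0.13), Gria4 (-1.87 ± 0.17), both subunits of AMPA receptors, and the scaffold gene Dlg2 (-1.28 ± 0.12). In bipolar against ganglion cells 4 fell, Gria3 (-4.18), Dlg3 (-2.97), Dlg2 (-1.38) and Gria4 (-1.36), and Dlg1 rose (1.14). In ganglion against amacrine cells Dlg3 rose (2.08) and the NMDA receptor gene Grin2a fell (-1.09). The median difference of the 10 genes was -0.59 in bipolar against amacrine, -0.45 in bipolar against ganglion and -0.40 in ganglion against amacrine cells. The counts were 3, 5 and 2 of 10, beside 10.4%, 29.6% and 24.8% of all genes called, and the last was no higher than the share of all genes.

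Among 25 tested genes of 31 for other leucine-rich repeat adhesion proteins, 4 rose and 7 fell in bipolar against amacrine cells, 6 rose and 8 fell in bipolar against ganglion cells, and 6 rose and 4 fell in ganglion against amacrine cells, with medians of -0.07, -0.36 and 0.02, where 10.4%, 29.6% and 24.8% of all genes were called. The largest in bipolar against amacrine cells were Slitrk6 (3.90), Lrit1 (3.89), Lrit2 (3.83) and Flrt2 (-3.30), and against ganglion cells Lrit1 (5.80), Flrt2 (-4.88), Lrit2 (4.63) and Islr2 (-3.99). In ganglion against amacrine cells they were Slitrk2 (-2.85), Lrfn4 (2.75), Islr2 (2.65) and Slitrk6 (2.22). The amacrine mean of Islr2 joined unlike subtypes. It was at 10.54 in starburst cells, above every ganglion cell subtype (7.98 to 9.29), and at 4.50 to 5.54 in the other amacrine subtypes. Lrit1 is known from photoreceptor synapses, Flrt2 as a guidance ligand, and the Slitrk proteins as synapse organisers that bind LAR-type phosphatases. All 5 rod and all 4 tested cone markers were called in bipolar against ganglion cells, without overlap, Opn1mw alone being lower in bipolar cells. Rod markers averaged 8.27 in ON and 8.87 in MP bipolar cells, against 5.31 to 6.46 in ganglion cell subtypes. Lrit1 was also at 9.24 in MP and 8.68 in AII amacrine cells. The part of photoreceptors was not tested. Lrfn4 had means of 7.05 in ganglion and 4.30 in amacrine cells. Its arrays did not overlap between these classes, as for 4 of the 25 genes and 17.3% of all genes. It lay below the overall median on every amacrine and bipolar array and passed the filter on dim genes only through ganglion cell arrays. The lack of overlap was thus partly fixed in advance.

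In the RefSeq annotation 5 of the members lie inside a larger gene: Lrrc4 in Snd1, Lrrtm1 in Ctnna2, Lrrtm2 in Ctnna1, Lrrtm3 in Ctnna3 and Lrrn3 in Immp2l. Over the 13 subtype means the nested gene and its host correlated at r = -0.07 for Lrrc4, 0.54 for Lrrtm1, 0.40 for Lrrtm2 and 0.31 for Lrrtm3, given as a description of means from the same arrays. Ctnna3 was dim, with subtype means from 4.31 to 5.0, and was not tested, while Lrrtm3 inside it reached 9.28. Ctnna1, an alpha-catenin gene, was 1.23 higher in bipolar than in amacrine cells, a difference Lrrtm2 did not share (-0.76). Ctnna2 was lower in bipolar than in ganglion cells (-1.29), as was Lrrtm1 (-1.33). The bipolar sorts were unlike for Lrrtm1 only, at 8.75 in ON and 4.45 in MP cells, against 7.83 and 7.34 for Ctnna2. The Lrrtm1 difference also changed sign with C57BL/6 subtypes (0.97) and with its second probe set (0.34). Immp2l was not analysed here.

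The genes whose pattern over the 13 subtype means was most like that of a member, by Pearson r among all genes tested, were Batf3 (0.969), Apobec1 (0.967) and Prkch (0.962) for Lrrn1, a transcription factor, an RNA-editing enzyme and a protein kinase. All 3 were highest in ganglion cells, at 6.87 in W7, 7.67 in J and 8.81 in W3 cells, and at 4.51 or lower in starburst or J amacrine cells. For Lrrtm1 they were Fam20c (0.902), Pebp1 (0.901) and Slx1b (0.896), for Lrrtm2 Usp29 (0.892), Slc5a3 (0.889) and Pds5b (0.866), for Lrrtm3 the potassium channel gene Kcnj9 (0.898), Lig1 (0.861) and Klhl29 (0.855), and for Lrrtm4 Ddah1 (0.893), Fgf13 (0.870) and R74862 (0.845). For Lrrc4 they were Mapre1 (0.873), Sgtb (0.842) and Tgoln1 (0.841), for Lrrc4c Grsf1 (0.860), Xpo6 (0.848) and Zfr (0.843), and for Lrrn3 Pitpnm2os1 (0.859), Camkk2 (0.834) and Poldip2 (0.829). These are the highest of 13951 values each, over 13 points from shared arrays. Kcnj9 shared with Lrrtm3 its top level in MP bipolar cells, at 8.77, and its lowest in starburst cells, at 4.42.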

How the data were processed

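Labelled RNA from each of 26 sorted samples was hybridised to a single-colour expression array after 2 rounds of amplification, per the labels' protocols. The deposited table holds intensity values on a linear scale, as the authors gave them, with 2.87% to 4.02% of values per array equal to 1. Their software and scaling were not given in the sources used here. Arrays hold no read depth, and the number of arrays limits the precision.

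Values were turned into log2(intensity + 16) and quantile-normalized over 45037 probe sets. Probe sets with 1 gene symbol numbered 34945, those with several 932 and those with none 9160. The brightest probe set stood for its gene. Genes above the overall median of 6.14 on at least 2 arrays (13951) were fitted in limma 3.58.1 (R 4.3.3), with a mean per subtype, 18 differences and 3 F tests, and Benjamini-Hochberg adjustment within each comparison over all genes tested. A call needed an adjusted p under 0.05 and 1 log2 unit, for an F test a range of subtype means of 1. All 10 members are reported. Of other lists, the genes with the largest called differences between classes are named, and the 3 genes most like each member by Pearson r. The members and lists were chosen with earlier results of these data known. Replicates came from different litters, per the series' design text. Deviations of same-numbered replicates correlated at -0.23 to 0.37 over 78 pairs of subtypes, with 21 over 0.1, and since this did not hold for every pair the numbers were not treated as pairing samples. On simulated data with 200 changed genes, limma recovered 96.4% to 100% of changes of 2 log2 units and 36.1% to 97.1% of changes of 1, over 5 comparisons. Recovery asked for an adjusted p under 0.05 and the right sign, not for a size of 1 log2 unit. The simulated arrays held no other spread between subtypes, so these shares are not those of the calls reported here. Alternatives covered scaling, pseudocount, filter, probe set, array weights, the replicate block, subtype means as units, strain and each array left out.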

Additional observations from a re-analysis of the deposited data

How the results depend on the processing

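Of 57 calls, 20 were kept in every alternative run, 37 were lost in at least 1 and 5 changed sign in at least 1. The cause of these changes was not tested, apart from what the alternatives' construction gives. The second probe set passed the filter on dim genes for 5 of the tested genes. Those of Lrrc4 and Lrrn1 were too dim, and Lrrn3 has a single probe set. The C57BL/6 subtypes leave out MP bipolar, MP amacrine, AII and Cdh3 cells. The sign changed for Lrrtm1 in bipolar against ganglion cells with the second probe set (0.34) and C57BL/6 subtypes (0.97), for Lrrtm4 there with the second probe set (1.71), the median over probe sets (0.18) and C57BL/6 subtypes (0.36), for Lrrtm4 in ganglion against amacrine cells with the second probe set (-0.39), for Lrrtm3 in bipolar against amacrine cells with C57BL/6 subtypes (-0.32), and for Lrrn1 in MP against other amacrine cells with the median over probe sets (-0.05).

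The counts of members below are given without the share of all genes called in the same setting. A change in them can therefore not be read as particular to the members. The count over 13 subtypes was 5 with the second probe set, of 5 members measured there. In bipolar against amacrine cells it was 1 with a pseudocount of 64, the second probe set or the median over probe sets, and 0 in limma with subtype means (1 at an unadjusted p under 0.05). In bipolar against ganglion cells it was 5 with the columns as deposited, 1 with a pseudocount of 64, C57BL/6 subtypes or subtype means, and 0 in limma with the median over probe sets (4 at an unadjusted p under 0.05). In ganglion against amacrine cells it was 1 with a pseudocount of 64 or subtype means and 4 with C57BL/6 subtypes. Within ganglion cells it was 2 with a pseudocount of 64 or the second probe set, and 0 in limma with C57BL/6 subtypes (4 at an unadjusted p under 0.05). Within amacrine cells it was 4 with the second probe set and 3 with C57BL/6 subtypes. In GABAergic against glycinergic cells it was 2 with a pseudocount of 4 and 0 in limma with the median over probe sets (4 at an unadjusted p under 0.05), and within the J line 5 with the second probe set. With the columns as deposited, the all-gene median shifted by 0.53 in ganglion against amacrine cells, -0.53 in bipolar against ganglion cells and 0.56 within the J line.

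With each array left out in turn, the counts were 8 to 8 over 13 subtypes, 2 to 3 in each of the 3 class comparisons, 3 to 6 in ON against MP bipolar cells, 7 to 8 within amacrine and 2 to 5 within ganglion cells (2 without Cdh3 replicate 2 or W7 replicate 2), 1 to 4 in GABAergic against glycinergic cells, 3 to 6 within the J line, 2 to 4 within the MP line and 15 to 22 for single subtypes. A fit with the replicate number as a block gave 5 calls in ON against MP bipolar cells, adding Lrrn1 (adjusted p = 0.0175), and 4 within the MP line, adding Lrrtm4 (adjusted p = 0.0451). Its other counts were those of the fit without the block. Signal limits Lrrc4b and Lrrn2, and values near the floor of 4.09 understate folds.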
